A study of Homo sapiens with 12 samples.

Results

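Of the genes that make and break down prostaglandins, 5 were followed across 12 libraries of the human colon adenocarcinoma cell line SW480: PTGS2, HPGD, PTGES, PTGES2 and PTGES3. They were picked by gene symbol, with earlier results of these data known, among 13554 genes listed for the knockdown and 13583 genes listed for the overexpression, and all 5 had a row in both tables. Poly(A) RNA was sequenced from stably transfected lines in which GPD1L, a relative of the cytosolic glycerol-3-phosphate dehydrogenase GPD1, was lowered by a short hairpin RNA (shGPD1L) or raised by overexpression (OE). The shGPD1L line had as its control a line with hairpin shNC, and the OE line one with the vector alone (Vector), with 3 libraries in each of the 4 groups. Each change of GPD1L was thus seen in 1 line against 1 control line, so that effects of a hairpin on other transcripts, or of the line itself, cannot be told apart from those of GPD1L. Whether the lines were clones is not stated. Whether the libraries of a line came from separate cultures is not stated either, so spreads and p-values describe these samples and may be technical. Values are FPKM, numbers of sequenced fragments scaled to transcript length and library size. A log2 change is a difference of log2(FPKM + 1), a scale on which low genes appear to change less than they do.

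Prostaglandins are made from arachidonate that phospholipases A2 release from membranes. Cyclooxygenases, the constitutive PTGS1 and the inducible PTGS2, turn arachidonate into prostaglandin H2, which terminal synthases convert further: PTGES, PTGES2 and PTGES3 can each form prostaglandin E2, and PTGES is the form usually induced together with PTGS2. HPGD, a prostaglandin dehydrogenase, oxidises and thereby inactivates prostaglandin E2, and in colorectal tumours PTGS2 is often raised and HPGD often lost. PTGS2 transcript is also widely used as a readout of ferroptosis, the iron-dependent cell death that the series title names together with the transcription factor ATF3.

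The promoter sequences of PTGS2 and HPGD are shown because these members had the log2 changes of greatest size in the overexpression and the knockdown; the bases are those just before a start site in RefSeq (GRCh38.p14), and capitals mark the motifs found. The PTGS2 window lies at chr1:186680424-186680673 on the minus strand. HPGD has 2 annotated start sites, whose windows lie at chr4:174522489-174522738 and chr4:174522894-174523143 on the minus strand.
PTGS2: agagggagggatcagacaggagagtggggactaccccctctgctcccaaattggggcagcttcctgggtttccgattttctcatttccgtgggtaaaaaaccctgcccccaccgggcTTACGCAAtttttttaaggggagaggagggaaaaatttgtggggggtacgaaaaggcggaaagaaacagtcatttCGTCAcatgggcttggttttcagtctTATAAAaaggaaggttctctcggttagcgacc
HPGD, first start: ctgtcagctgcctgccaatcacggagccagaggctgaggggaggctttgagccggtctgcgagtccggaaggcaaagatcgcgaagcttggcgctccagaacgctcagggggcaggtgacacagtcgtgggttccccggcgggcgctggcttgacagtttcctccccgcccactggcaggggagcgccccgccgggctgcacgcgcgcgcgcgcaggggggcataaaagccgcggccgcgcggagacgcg
HPGD, second start: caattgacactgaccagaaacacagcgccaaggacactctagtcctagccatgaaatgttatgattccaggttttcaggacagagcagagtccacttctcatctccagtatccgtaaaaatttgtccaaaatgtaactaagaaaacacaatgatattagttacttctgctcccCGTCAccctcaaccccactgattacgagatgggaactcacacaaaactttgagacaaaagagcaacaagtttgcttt
A total of 7 motifs were searched on both strands of these 250 bases. They were the full cyclic AMP response element TGACGTCA and its shorter core TGACG, which the full element contains, the AP-1 motif TGANTCA, the TATA box motif TATAAA, the E-box CACGTG, a C/EBP motif written TTNNGCAA, and an NF-kB motif. The NF-kB motif was searched in a fixed, narrow form, and NF-kB sites of other forms would have been missed. The lack of a match to it therefore does not show that a window, that of PTGS2 included, has no NF-kB site. The PTGS2 window held 3 of the 7 motifs. These were TATAAA at -32 to -27, the core TGACG (read on the other strand) at -58 to -54, and TTACGCAA, a match to TTNNGCAA, at -133 to -126. TGACG is the core of the element bound by CREB and ATF family factors, ATF3 among them, and TTNNGCAA resembles sites of C/EBP factors. Over 35114 promoter windows of the same length, 10.7% held TATAAA, 21.2% held TGACG and 9.05% held TTNNGCAA. The first HPGD window held none of the 7 motifs and had 70.8% G or C, against 50.4% in the PTGS2 window; the second HPGD window held TGACG at -77 to -73. The full TGACGTCA was in 1.65% of all windows and in none of the 8 windows of the 5 members. A match describes these letters and does not show that a factor bound there.

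PTGS2 messenger RNA is known to be unstable through AU-rich elements after its coding sequence, to which decay factors such as ZFP36 bind. The first 30 bases after the stop codon of its principal transcript in GENCODE 29 (chr1:186674323-186674352, minus strand, GRCh38) are shown because they hold 3 overlapping copies of ATTTA, in capitals.
PTGS2, first bases after the stop: aagtctaatgatcatATTTATTTATTTAta
In the sense strand, the 2562 bases after the PTGS2 stop held 22 copies of ATTTA, a count reached by 1.91% of 13234 protein-coding genes compared. HPGD held 5 copies, PTGES3 held 6, PTGES held 1 and PTGES2 held 0, where the median of all these genes was 1. The 5 members therefore differed in this feature, with PTGS2 at 8.59 copies per kilobase and PTGES3 next at 5.28.

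The perturbed gene followed its labels. GPD1L was at 1.55, 1.26 and 2.23 FPKM in shGPD1L, against 8.68, 8.01 and 9.10 FPKM in shNC, and at 22.3, 22.8 and 22.1 FPKM in OE, against 10.7, 10.2 and 11.1 FPKM in Vector. The library shGPD1L replicate 3 stood apart on the first principal component, at 29.1 against -12.1 to 0.319 for the other 5 libraries of its table, so values of the knockdown are also given without it. Of 9 markers of colon epithelium 7 had a row in the knockdown and 9 in the overexpression; their summed level was 4203 to 4482 FPKM in shGPD1L, 5065 to 5427 in shNC, 4137 to 4268 in OE and 3776 to 3884 in Vector. KRT8, KRT18 and KRT19 carried most of this sum and rose in OE, whereas CDX2 (log2 change -0.59), VIL1 (-0.52), CDH1 (-0.31) and EPCAM (-0.21) fell there (limma adjusted p = 0.00217, 0.000252, 0.00155 and 0.00724). Of 7 fibroblast markers COL1A1 and PDGFRB had a row, together at no more than 2.31 FPKM in any library; PDGFRB fell in OE (log2 change -0.41, limma adjusted p = 0.0199). Of 6 leukocyte markers CD68 and CD14 had a row, together at 20.001 to 28.7 FPKM in shGPD1L, 27.8 to 32.0 in shNC, 18.4 to 19.5 in OE and 17.3 to 19.7 in Vector. CD68 made up most of that sum, and CD14 fell to 0.811 FPKM in OE, against 1.81 FPKM in Vector (log2 change -0.64, limma adjusted p = 0.00803). PDGFRB was at 0.799 FPKM in OE and 1.40 FPKM in Vector. PDGFRB and CD14 thus passed the filter of a mean of 1 FPKM through their Vector libraries, so neither call is read as support for a change. The other leukocyte markers, and 4 endothelial markers, had no row and so could not be analysed here. The part of these markers in the members' values was not tested. In such bulk samples fewer cells that express a gene and less RNA per cell cannot be told apart.

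PTGS2 (chromosome 1, 186671791 to 186680427, minus strand, GRCh38) was higher in both perturbed lines, although GPD1L was low in one and high in the other. It was at 30.4, 28.04 and 40.015 FPKM in shGPD1L, against 19.4, 22.9 and 21.0 FPKM in shNC. The groups did not overlap, and replicate 3 was the highest shGPD1L library. The means were 32.8 ± 6.34 and 21.1 ± 1.78 FPKM (SD, n = 3 each), a ratio of 1.56 and a log2 change of 0.60 (SE 0.14). This knockdown change was not called, while that of PTGS2 in the overexpression was. Without shGPD1L replicate 3 the log2 change was 0.456. In the other table PTGS2 was at 28.1, 26.3 and 24.9 FPKM in OE, against 15.0, 15.5 and 14.1 FPKM in Vector. Every OE library lay above every Vector library, with means of 26.5 ± 1.61 and 14.9 ± 0.73 FPKM (SD, n = 3 each), a ratio of 1.78 and a log2 change of 0.79 (SE 0.062). Ranked by log2 change from the top, PTGS2 was 26th of 12208 genes in the overexpression and 47th of 12156 in the knockdown. The log2 change in the overexpression less that in the knockdown was 0.19 (SE 0.16) and was not called. Without shGPD1L replicate 3, with the knockdown change at 0.456, this difference passed the call threshold, where 2572 of 11198 genes tested were called.

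**Figure D1:**
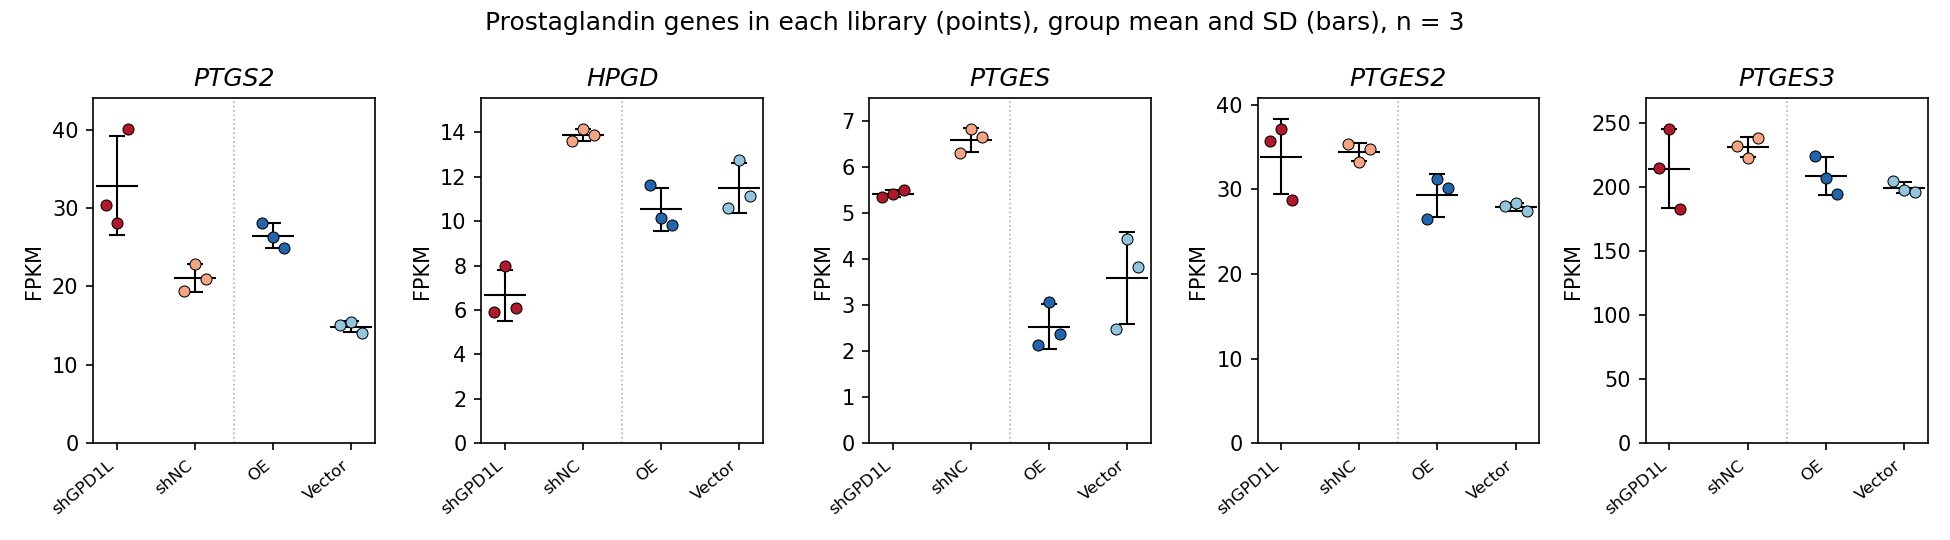
FPKM (linear axis from 0) of each member in every library, as points, with the group mean and SD (n = 3) as bars; the dotted line divides the knockdown table from the overexpression table. PTGS2 lies higher in shGPD1L and OE than in their controls, and HPGD lies at 5.91 to 7.98 FPKM in shGPD1L, below the other 3 groups.

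HPGD (chromosome 4, 174490177 to 174523154, minus strand) was lower in shGPD1L than in shNC, while its libraries overlapped between OE and Vector. It was at 5.91, 7.98 and 6.09 FPKM in shGPD1L, against 13.6, 14.1 and 13.9 FPKM in shNC. The lowest shNC library was thus well above the highest shGPD1L library. The means were 6.66 ± 1.15 and 13.9 ± 0.27 FPKM (SD, n = 3 each), a ratio of 0.48 and a log2 change of -0.97 (SE 0.11), the 19th largest fall among 12156 genes. Without shGPD1L replicate 3 the log2 change was -0.917. HPGD was at 11.6, 10.1 and 9.83 FPKM in OE, against 10.6, 12.8 and 11.1 FPKM in Vector. These libraries overlapped, at means of 10.5 ± 0.97 and 11.5 ± 1.13 FPKM (SD, n = 3 each) and a log2 change of -0.12 (SE 0.086). The log2 change in the overexpression less that in the knockdown, called the difference of effects here, was 0.85 for HPGD (SE 0.15).

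Since PTGS2 and HPGD stand at the start and the end of prostaglandin E2 handling, their ratio was taken in each library, as FPKM over FPKM and therefore per length. It was 5.15, 3.51 and 6.57 in shGPD1L, against 1.42, 1.62 and 1.51 in shNC. In the other table it was 2.41, 2.60 and 2.53 in OE, against 1.42, 1.21 and 1.26 in Vector. The ratio was higher in every library of a perturbed line than in every library of its control. Its mean was 5.08 ± 1.53 in shGPD1L and 1.52 ± 0.10 in shNC (SD, n = 3 each), 3.35 times as high, with a wide spread among the shGPD1L libraries. In OE the mean was 2.52 ± 0.094 and in Vector 1.30 ± 0.11 (SD, n = 3 each), 1.94 times as high. In the knockdown both genes entered this ratio, a higher PTGS2 and a lower HPGD, while in the overexpression the HPGD libraries overlapped. The ratio is a description of transcripts chosen with these values known, and prostaglandins themselves were not measured.

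**Figure D2:**
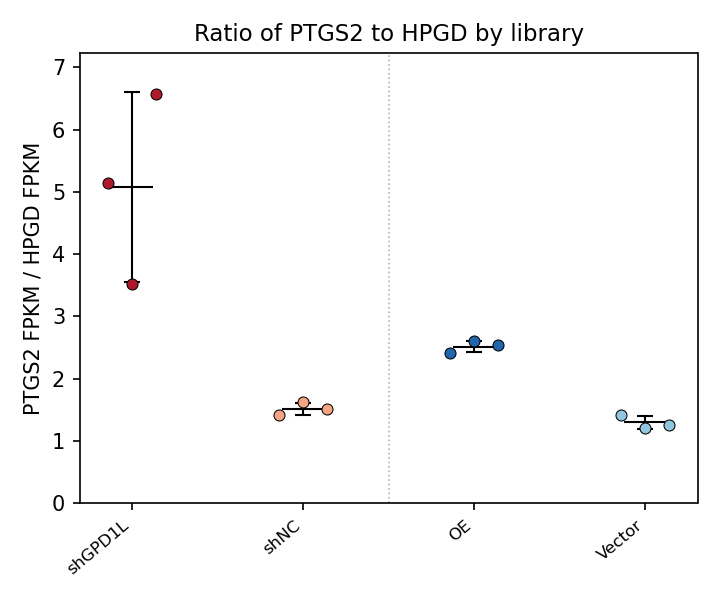
Ratio of PTGS2 FPKM to HPGD FPKM (linear axis from 0) in each library, as points, with the group mean and SD (n = 3) as bars. The shGPD1L libraries sit at 3.51 to 6.57 and the shNC libraries at 1.42 to 1.62, while the OE libraries sit at 2.41 to 2.60 and the Vector libraries at 1.21 to 1.42.

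PTGES (chromosome 9, 129738331 to 129753047, minus strand), the inducible synthase, was the lowest member by level. It was at 5.35, 5.41 and 5.49 FPKM in shGPD1L, against 6.30, 6.81 and 6.64 FPKM in shNC. The groups did not overlap, yet the step was small, at means of 5.42 ± 0.074 and 6.58 ± 0.26 FPKM (SD, n = 3 each) and a log2 change of -0.24 (SE 0.081). PTGES was at 2.13, 3.07 and 2.38 FPKM in OE, against 2.48, 4.44 and 3.83 FPKM in Vector. These libraries overlapped through Vector replicate 1, the lowest of its group, and the log2 change was -0.36 (SE 0.17). Without that library it was -0.548, and PTGES then passed the call threshold, where 1676 of 12164 genes tested were called. PTGES had thus a log2 change below 0 in both perturbed lines, opposite in sign to that of PTGS2.

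The other two synthases varied little between groups. PTGES2 (chromosome 9, 128120693 to 128128462, minus strand), a membrane-associated synthase, was at 35.7, 37.1 and 28.8 FPKM in shGPD1L, against 35.3, 33.2 and 34.8 FPKM in shNC. Its log2 change was -0.031 (SE 0.11), and without shGPD1L replicate 3, its lowest library, it was 0.0783. It was also above 0 with median-of-ratios scaling (0.0126). In the other table it was at 26.5, 31.3 and 30.2 FPKM in OE, against 28.02, 28.4 and 27.4 FPKM in Vector, a log2 change of 0.063 (SE 0.065). Both pairs of groups overlapped.

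PTGES3 (chromosome 12, 56663341 to 56688408, minus strand) encodes p23, better known as a cochaperone of HSP90 than as a synthase. It was at 215, 245 and 183 FPKM in shGPD1L, against 232, 222 and 238 FPKM in shNC, and replicate 3 was again the lowest shGPD1L library. The log2 change was -0.12 (SE 0.11), and -0.00922 without that library. It was at 224, 207 and 195 FPKM in OE, against 205, 197 and 196 FPKM in Vector, and the groups overlapped at a log2 change of 0.062 (SE 0.054). PTGES3 made up 84.0% to 88.7% of the summed FPKM of the 3 synthases in all 12 libraries. GENCODE annotates 5 processed pseudogenes of PTGES3, with which reads may have been shared, so its level is uncertain. PTGES3 also overlaps RN7SL809P on the same strand, and the other 4 members overlap no annotated gene. Neither RN7SL809P nor any of the 5 pseudogenes had a row.

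**Figure D3:**
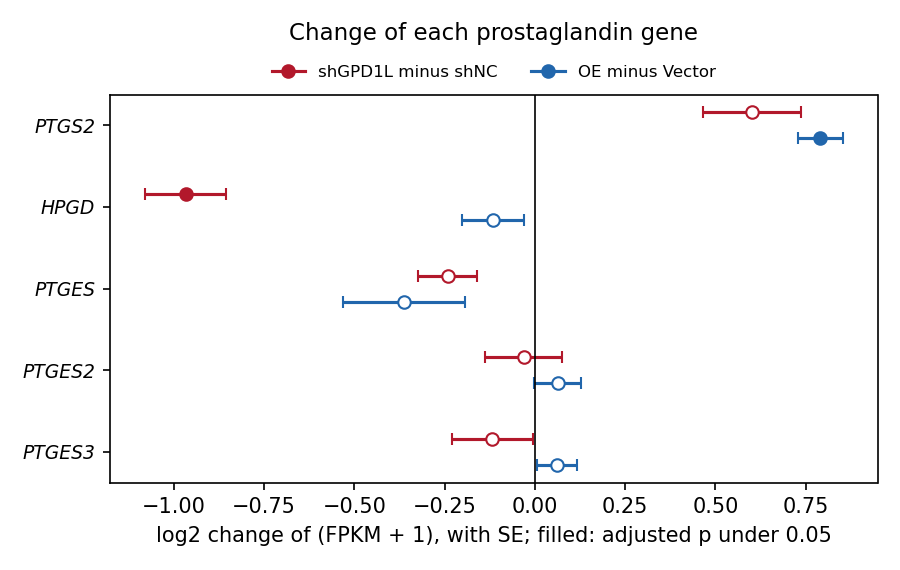
Difference of log2(FPKM + 1) for each member, shGPD1L minus shNC in red and OE minus Vector in blue, with the SE from the limma fit; filled points passed an adjusted p of 0.05. HPGD in the knockdown (-0.97) and PTGS2 in the overexpression (0.79) are filled, and PTGES lies below 0 in both.

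By the limma fit over all genes, with calls at a Benjamini-Hochberg adjusted p under 0.05, 1 of 5 members was called in the knockdown, HPGD, where 0.592% of all tested genes were called (0.115% higher and 0.477% lower). In the overexpression 1 of 5 was called, PTGS2, where 22.4% of all tested genes were called (12.2% higher and 10.3% lower). For the difference of effects 1 of 5 was called, HPGD, where 14.1% of tested genes were called (9.14% higher and 5% lower). The groups did not overlap for 3 of 5 members in the knockdown (24.7% of all tested genes, 9.54% higher and 15.1% lower) and for 1 of 5 in the overexpression (41.8%, 24.2% higher and 17.6% lower). As the members were picked with these contrasts known, nothing is read from their share. The knockdown calls rest on few libraries. HPGD was not called without shNC replicate 1, 2 or 3 or without shGPD1L replicate 1, when 1, 0, 0 and 8 genes were called in all, with its log2 change between -1.09 and -0.899 over these and the other leave-outs. Without shGPD1L replicate 3, 608 genes were called in all and both HPGD and PTGS2 were among them.

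By group mean the levels ran PTGES3, PTGES2, PTGS2, HPGD and PTGES from high to low in all 4 groups. Neighbours in this order did not overlap in shNC or in Vector. In shGPD1L the PTGS2 libraries (28.04 to 40.015 FPKM) overlapped those of PTGES2 (28.8 to 37.1 FPKM), and in OE they did so too (24.9 to 28.1 against 26.5 to 31.3 FPKM). HPGD and PTGES lay closest in shGPD1L, where the lowest HPGD library was at 5.91 and the highest PTGES library at 5.49 FPKM. Among all listed genes PTGES3 stood at the 98.6th and 98.4th percentile of mean FPKM in the knockdown and the overexpression table, PTGES2 at 84.5 and 81.1, PTGS2 at 79.8 and 72.7, HPGD at 53.4 and 54.6, and PTGES at 38.4 and 24.3.

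The members did not move as 1 unit across the 12 libraries. On log2(FPKM + 1) less the mean of the control group of the same table, Pearson's r was -0.649 between PTGS2 and PTGES, -0.488 between PTGS2 and HPGD, 0.606 between HPGD and PTGES3, and 0.591 between PTGES2 and PTGES3. The other 6 pairs lay between -0.194 and 0.341. These values describe 12 libraries that fall into 4 groups and share library depth and the position of shGPD1L replicate 3. Among 11208 genes, the patterns most like that of PTGS2 were those of OS9 (r = 0.983), which encodes a lectin of ER-associated degradation, EXPH5 (0.974) and the circadian repressor PER1 (0.966). PER1 was at 18.0 ± 1.78 FPKM in shGPD1L and 10.7 ± 0.53 FPKM in shNC, and at 12.995 ± 0.82 FPKM in OE and 6.71 ± 0.25 FPKM in Vector (SD, n = 3 each). For HPGD the most alike were the nucleoporin gene NDC1 (0.969), KITLG, which encodes the ligand of the receptor KIT (0.967), and MAPKAP1 (0.966), a subunit of the kinase complex mTORC2. KITLG was at 34.4 ± 1.55 FPKM in shGPD1L and 48.6 ± 2.22 FPKM in shNC, and at 23.5 ± 1.72 FPKM in OE and 24.6 ± 1.04 FPKM in Vector (SD, n = 3 each). The leading genes were LYPD3 (0.896), GLB1 (0.895) and CCDC51 (0.864) for PTGES, PCBP4 (0.954), EFTUD2 (0.93) and FEM1A (0.927) for PTGES2, and USP1 (0.966), ATP6V1H (0.955) and LTO1 (0.942) for PTGES3.

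Further genes, together called pathway genes here, were taken from 10 lists of 90 genes, of which 64 had a row in the knockdown and 63 in the overexpression. Besides enzymes, carriers and receptors, the lists hold HSP90 partners of PTGES3 and factors known or reported to act on PTGS2 or HPGD. ATF3, EGR1, RELA, ZFP36, ZFP36L2, HNRNPD, FOXA1 and FKBP5, all called in the overexpression, are such factors or partners and not prostaglandin enzymes. In the knockdown 0 of 58 tested genes rose and 1 fell, ATF3, against 0.592% called among all genes. An unadjusted limma p under 0.05 was reached by 10 of the 58, and by 1980 of all 12156 genes tested. The knockdown counts at that p given below for single lists are to be read beside this share of all genes. The median log2 change of the 58 was -0.013, beside -0.036 over all genes tested. In the overexpression 5 of 57 rose and 12 fell, against 12.2% and 10.3% of all genes tested, at a median of -0.026 beside 0.024. With library totals set equal 7 rose and 10 fell, so the share of rises among these calls was 41.2% in place of 29.4%. A larger share of the listed genes than of all genes thus fell in the overexpression, and no test of the lists was made. Among the falls, PLA2G2A passed the filter of a mean of 1 FPKM through its Vector libraries. AKR1C1, AKR1C2 and AKR1C3 are close paralogs, between which reads may have been divided with error. As the lists were chosen with earlier results known, nothing is read from this share. Counts of overexpression calls given below for single lists are to be read beside those of all genes tested, 12.2% higher and 10.3% lower.

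Of the phospholipases A2 tested in both tables, PLA2G12A had the highest level, at 8.31 ± 0.47 FPKM in shGPD1L and 8.65 ± 0.47 FPKM in shNC, and at 13.9 ± 0.75 FPKM in OE and 14.02 ± 0.52 FPKM in Vector (SD, n = 3 each). PLA2G6 was at 3.99 to 6.48 FPKM over the 12 libraries, and neither gene was called. The cytosolic phospholipase gene PLA2G4A, the main source of arachidonate for cyclooxygenases in many cells, was at 2.24, 2.68 and 2.67 FPKM in shGPD1L, against 2.28, 2.58 and 2.64 FPKM in shNC, and at 2.33, 1.93 and 1.71 FPKM in OE, against 2.35, 2.11 and 2.05 FPKM in Vector. It was called in neither comparison. Of the phospholipase list 0 of 5 tested genes were called in the knockdown, with 1 at an unadjusted limma p under 0.05, and 1 of 5 in the overexpression, where PLA2G2A was tested and PLA2G4C, tested in the knockdown, was not. The called gene was the secreted phospholipase PLA2G2A, which fell to 0.779 ± 0.42 FPKM in OE, against 2.14 ± 0.58 FPKM in Vector (SD, n = 3 each; log2 change -0.84, SE 0.20, limma adjusted p = 0.0204, and 0.0162 to 0.0594 over the alternatives). PLA2G2A passed the filter of a mean of 1 FPKM through its Vector libraries, so its call is not read as support for a change of the list. PLA2G4B shares a locus with the read-through gene JMJD7-PLA2G4B, and its values of 0.27 to 4.09 FPKM in the knockdown table are uncertain.

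PTGS1, the constitutive cyclooxygenase, was at 1.20 ± 0.49 FPKM in shGPD1L and 1.62 ± 0.11 FPKM in shNC, and at 1.05 ± 0.33 FPKM in OE and 1.37 ± 0.23 FPKM in Vector (SD, n = 3 each); it was called in neither comparison. PTGS2 was thus the cyclooxygenase with the higher level in all 12 libraries. Terminal synthases other than the members lead to prostaglandins D2 and F2-alpha, prostacyclin and thromboxane. On their list, PTGS1 included, 0 of 6 tested genes were called in the knockdown, with 1 at an unadjusted limma p under 0.05. In the overexpression 3 of 6 fell. The prostacyclin synthase gene PTGIS and the prostaglandin D synthase gene HPGDS had no row. No prostacyclin or thromboxane synthase was among the tested genes. The prostaglandin F synthase gene AKR1C3 was at 21.2, 20.4 and 22.0 FPKM in OE, against 32.5, 30.1 and 32.1 FPKM in Vector (log2 change -0.55, SE 0.053, limma adjusted p = 0.000567). PRXL2B, which encodes another prostaglandin F synthase, was at 18.2, 17.8 and 18.5 FPKM in OE, against 24.5, 24.2 and 23.4 FPKM in Vector (log2 change -0.38, SE 0.047, limma adjusted p = 0.00165). CBR1, a carbonyl reductase that converts prostaglandin E2 to F2-alpha, fell less, to 62.8 ± 1.27 FPKM in OE, against 72.0 ± 2.41 FPKM in Vector (SD, n = 3 each; log2 change -0.19, limma adjusted p = 0.0166, up to 0.063 over the alternatives); it overlaps SETD4 on the other strand. The prostaglandin D synthase gene PTGDS was at 3.01 ± 0.66 FPKM in shGPD1L and 4.09 ± 0.28 FPKM in shNC, and at 5.30 ± 0.38 FPKM in OE and 5.94 ± 0.89 FPKM in Vector, with no call. The thromboxane synthase gene TBXAS1, at 0.236 to 1.04 FPKM, lay under the filter of a mean of 1 FPKM and was not tested in the main fit. AKR1B1, which also has prostaglandin F synthase activity, was at 1.81 ± 0.44 FPKM in shGPD1L and 1.93 ± 0.35 FPKM in shNC, and at 4.64 ± 3.18 FPKM in OE and 2.71 ± 0.26 FPKM in Vector, again with no call.

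**Figure D4:**
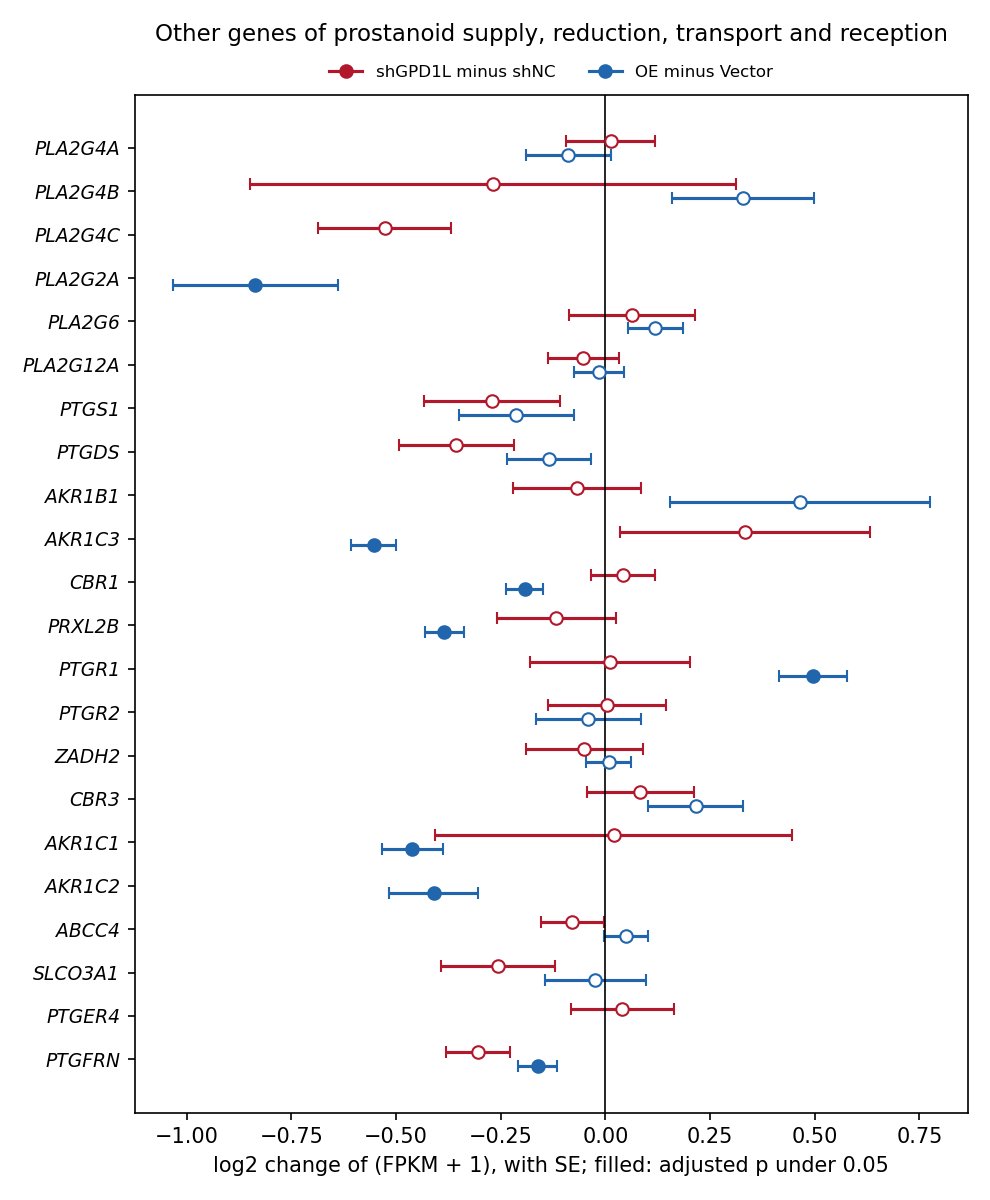
Difference of log2(FPKM + 1) with its SE for the tested genes of arachidonate release, other prostanoid synthesis, reduction, transport and reception, shGPD1L minus shNC in red and OE minus Vector in blue; filled points passed an adjusted p of 0.05 by limma. All filled points are from the overexpression, where PTGR1 (0.50) is the filled point above 0.

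Of the genes of further reduction, 1 of 6 tested was higher and 2 were lower in the overexpression. In the knockdown 0 of 5 were called, and 0 had an unadjusted limma p under 0.05. PTGR1, which reduces the 15-keto products that HPGD makes, was at 46.5, 52.0 and 40.5 FPKM in OE, against 32.8, 31.9 and 32.5 FPKM in Vector (log2 change 0.50, SE 0.081, limma adjusted p = 0.00503); ZNF483 overlaps it on the other strand. In the knockdown PTGR1 was at 18.7, 18.5 and 32.0 FPKM in shGPD1L, against 22.3, 22.8 and 21.4 FPKM in shNC, so that replicate 3 alone lay above shNC. AKR1C1 fell to 15.0 ± 1.62 FPKM in OE, against 20.9 ± 0.096 FPKM in Vector (SD, n = 3 each; log2 change -0.46, limma adjusted p = 0.00442), and AKR1C2 fell by 0.41 on the log2 scale (limma adjusted p = 0.0282, up to 0.0898 over the alternatives). AKR1C1, AKR1C2 and AKR1C3 are close paralogs, between which reads may have been divided with error. In shGPD1L replicate 3 AKR1C1 was at 10.7 and AKR1C3 at 14.1 FPKM, beside no more than 2.85 and 6.49 FPKM in the other 2 shGPD1L libraries.

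For transport, the prostaglandin exporter gene ABCC4 was at 16.4 ± 0.21 FPKM in shGPD1L and 17.4 ± 0.76 FPKM in shNC, and at 19.0 ± 0.55 FPKM in OE and 18.3 ± 0.72 FPKM in Vector (SD, n = 3 each), with no call. SLCO3A1, which encodes another prostaglandin carrier, was at 1.09 FPKM on average in shGPD1L and 1.48 FPKM in shNC, and at 1.41 FPKM in OE and 1.43 FPKM in Vector, with no call. The uptake carrier gene SLCO2A1, which brings prostaglandins to HPGD, was at no more than 0.216 FPKM in any library and was not tested. Of 10 genes on the receptor list, 3 had a row in the knockdown and 2 in the overexpression. PTGER1, PTGER2, PTGER3, PTGFR, PTGIR, PTGDR and PTGDR2 had no row and so could not be analysed here. PTGER4, which encodes the prostaglandin E2 receptor EP4, was at 0.752 to 1.29 FPKM over the 12 libraries. The thromboxane receptor gene TBXA2R was at 0.432 to 0.877 FPKM in the knockdown table. PTGFRN, which encodes a protein that acts against the prostaglandin F receptor, was at 24.5, 23.1 and 22.5 FPKM in shGPD1L, against 28.2, 30.1 and 28.9 FPKM in shNC, with no overlap and no call (log2 change -0.30, limma adjusted p = 0.134). It fell by 0.16 on the log2 scale in OE (limma adjusted p = 0.0407), a call that held in 7 of 16 alternatives and in none of the leave-outs (adjusted p up to 0.113).

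Factors known to act on PTGS2 were set beside it. ATF3 was at 8.70, 6.40 and 5.87 FPKM in shGPD1L, against 13.1, 13.2 and 12.2 FPKM in shNC, and at 10.4, 11.2 and 11.8 FPKM in OE, against 5.88, 5.87 and 7.63 FPKM in Vector. ATF3 was thus lower in shGPD1L and higher in OE, with no overlap, while PTGS2 was higher in both, though not called in the knockdown. Of 12 and 11 tested transcription factors, 0 rose and 1 fell in the knockdown (ATF3, log2 change -0.81, limma adjusted p = 0.048, which passed in 4 of 16 alternatives, at 0.0219 to 0.245) and 3 rose in the overexpression. The rises were those of ATF3 (log2 change 0.71, limma adjusted p = 0.00257), the immediate-early factor EGR1 (0.38, limma adjusted p = 0.00393) and the NF-kB subunit RELA (0.31, limma adjusted p = 0.00861). In the knockdown EGR1 was at 30.9, 26.8 and 57.5 FPKM in shGPD1L, against 25.6, 26.7 and 24.0 FPKM in shNC, and FOS at 7.01, 6.69 and 14.9 FPKM, against 7.37, 6.29 and 5.69 FPKM. JUN, whose product pairs with that of FOS, was at 7.56, 7.54 and 5.61 FPKM in shGPD1L, against 8.40, 9.35 and 8.45 FPKM in shNC. EGR1 and FOS were highest in shGPD1L replicate 3, the library in which PTGS2 was highest too, while JUN was lowest there; the part of these factors in the PTGS2 level was not tested.

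Of 7 tested factors of PTGS2 messenger stability 0 were called in the knockdown, with 0 at an unadjusted limma p under 0.05, while 1 rose and 2 fell in the overexpression. ZFP36, which promotes the decay of messages with AU-rich elements, was at 60.5, 64.4 and 66.3 FPKM in OE, against 37.9, 40.3 and 41.0 FPKM in Vector (log2 change 0.67, SE 0.052, limma adjusted p = 0.000252). It was higher in the same line as PTGS2, whose 22 copies of ATTTA are given above. In the knockdown ZFP36 was at 37.4, 33.0 and 119 FPKM in shGPD1L, against 34.8, 37.2 and 28.5 FPKM in shNC, and the high value was again replicate 3. Its relative ZFP36L2 fell by 0.34 (limma adjusted p = 0.0291, up to 0.0902 over the alternatives), as did HNRNPD, which encodes the AU-rich element binding protein AUF1, by 0.18 (limma adjusted p = 0.0208, up to 0.0737). ELAVL1, which encodes the stabilising factor HuR, was called in neither comparison.

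Factors reported to act on HPGD gave 0 of 7 calls in the knockdown, with 2 at an unadjusted limma p under 0.05, and 1 of 7 in the overexpression, a fall of FOXA1 (log2 change -0.38, limma adjusted p = 0.00457). SNAI1, a repressor of epithelial genes that has been reported to repress HPGD, was at 4.34, 4.51 and 6.13 FPKM in shGPD1L, against 3.59, 3.91 and 3.58 FPKM in shNC, and at 2.68, 2.42 and 2.52 FPKM in OE, against 3.61, 3.48 and 2.89 FPKM in Vector. Its groups did not overlap in either table and neither change was called (limma adjusted p = 0.253 and 0.0519). Of the HSP90 partners of PTGES3, 0 of 8 were called in the knockdown, with 0 at an unadjusted limma p under 0.05, and 1 of 8 in the overexpression, FKBP5, which fell to 9.62 ± 0.73 FPKM in OE, against 11.9 ± 0.52 FPKM in Vector (SD, n = 3 each; limma adjusted p = 0.0207, up to 0.0727 over the alternatives). Of the lipoxygenase and epoxide branch, 0 of 4 were called in the knockdown, with 3 at an unadjusted limma p under 0.05, and 1 of 4 in the overexpression, the epoxide hydrolase gene EPHX1 (log2 change -0.25, limma adjusted p = 0.00496).

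As PTGS2 serves as a readout of ferroptosis, CHAC1 and TFRC, other transcripts used in that way and chosen after their values were known, were set beside it. CHAC1 was at 18.3 ± 3.22 FPKM in shGPD1L and 23.7 ± 2.11 FPKM in shNC, and at 61.9 ± 4.17 FPKM in OE and 56.9 ± 1.45 FPKM in Vector (SD, n = 3 each), called in neither comparison. TFRC was at 55.2 ± 12.7 FPKM in shGPD1L and 50.8 ± 2.95 FPKM in shNC, and at 59.6 ± 2.90 FPKM in OE and 67.1 ± 0.45 FPKM in Vector, where it fell by 0.17 on the log2 scale (limma adjusted p = 0.0331). Neither showed the higher level in both perturbed lines that PTGS2 had, although the PTGS2 rise in the knockdown was not called. Given how CHAC1 and TFRC were chosen, nothing about ferroptosis is read from this contrast, and its part in these levels was not tested.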

How the data were processed

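Poly(A) RNA of 12 SW480 libraries was sequenced, and the authors deposited 1 table of FPKM for each comparison. The submitters' processing notes name HISAT2, StringTie, DESeq2 and build GRCh38, without roles. Versions, annotation, filters, read depth and strand handling: not given in the sources used here. Per library, the listed FPKM added up to 421714 at the lowest and 444794 at the highest. Libraries were grouped by title, because the genotype labels of replicates 2 and 3 spell the gene GPD2L and GPD3L. A gene was tested if its 6 libraries averaged 1 FPKM or more, on log2(FPKM + 1) with limma 3.58.1 (R 4.3.3, intensity trend, Benjamini-Hochberg adjustment over all tested genes), within each table because the tables may have been normalized separately; the difference of effects used 1 fit of 4 group means to all 12 libraries. The members, lists and motifs were chosen with earlier results of these data known, so members get no test of their own. Named genes are the members, the 3 genes most like each, the called genes of the lists (up to 6 per list), and the listed synthases, transporters and receptors. GENCODE 29 and RefSeq GRCh38.p14 gave coordinates and sequences, and matplotlib 3.10.9 in Python 3.11.15 the figures. Alternatives were pseudocounts of 0.1 and 0.5, no filter or one at 5 FPKM, quantile normalization, median-of-ratios scaling, equal library totals, robust or untrended eBayes, a replicate block, and leaving out each library. CHAC1, TFRC, FOS, JUN, ELAVL1, PLA2G4A, PLA2G4B, PLA2G4C, PLA2G6, PLA2G12A and single cell type markers are named outside the rule, chosen after their values were seen.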

Additional observations from a re-analysis of the deposited data

Results flagged for a closer look

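The effects of the 2 perturbations differed for 4 of 55 pathway genes tested over all 12 libraries (limma, log2 change in the overexpression less that in the knockdown; 14.1% of all genes tested were called). The difference was 1.52 log2 units for ATF3 (SE 0.18, adjusted p = 0.000619), with every shGPD1L library below shNC and every OE library above Vector. It was 0.63 for ALOXE3, a relative of the lipoxygenases (SE 0.13, adjusted p = 0.0115), which was at 3.86 ± 0.60 FPKM in shGPD1L and 5.64 ± 0.32 FPKM in shNC, and at 5.12 ± 0.21 FPKM in OE and 4.44 ± 0.35 FPKM in Vector (SD, n = 3 each). For the epoxide hydrolase gene EPHX1 it was -0.60 (SE 0.13, adjusted p = 0.0103), at 112 ± 15.0 FPKM in shGPD1L and 87.6 ± 7.53 FPKM in shNC, and at 100.3 ± 1.47 FPKM in OE and 119.8 ± 4.14 FPKM in Vector; TMEM63A overlaps it on the other strand. For SNAI1 it was -0.63 (SE 0.16, adjusted p = 0.0218). Over the alternatives the adjusted p of ALOXE3 reached 0.0501, that of EPHX1 0.0644 and that of SNAI1 0.0646.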

How the results depend on the processing

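In 225 recomputed values (counts of calls and members' log2 changes), 197 stayed within the replicate spread or within 1.5 times the count, 28 moved, and no called member changed sign. The uncalled knockdown change of PTGES2 (-0.0312) was above 0 with median-of-ratios scaling (0.0126) and without shGPD1L replicate 3 (0.0783). The knockdown count of pathway genes, 1, was 0 with pseudocounts of 0.1 or 0.5, no filter, quantile normalization, equal totals, median-of-ratios scaling, untrended eBayes or the replicate block, and 0 to 2 without any 1 library; the 2 were AKR1C1 and ATF3, without shGPD1L replicate 3. The knockdown count of members was 0 to 2 without any 1 library. The log2 change of PTGES in the knockdown was -0.202 with median-of-ratios scaling and -0.194 with quantile normalization, and that of PTGES3 in the overexpression was 0.143 with quantile normalization. In the overexpression, without any 1 library, 11 to 14 pathway genes were called and 1 to 2 members; 10 of 17 pathway calls held in every setting that could be run, and all 17 kept their sign. For the difference of effects 4 pathway genes were called, 2 with the filter at 5 FPKM, 8 with median-of-ratios scaling (25% of them higher, against 50%) and 3 to 14 without any 1 library, the 14 being without shGPD1L replicate 3. In the knockdown 72 genes were called in all, 27 with quantile normalization (37% higher, against 19.4%), and in the overexpression 71.5% of calls were higher with equal totals, against 54.2%. No pairing of libraries by replicate number was visible. Same-numbered deviations correlated at -0.0155, -0.18 and -0.163 in the knockdown and at 0.0222, -0.0607 and -0.0363 in the overexpression. Differently numbered ones correlated at -0.0689 to 0.25 in the knockdown and at -0.0331 to 0.0709 in the overexpression. Deviations from means of 3 libraries cannot show whether libraries were prepared in numbered batches. With the replicate block, 0 pathway genes and 0 members were called in the knockdown, 14 pathway genes and PTGS2 in the overexpression, and 1 pathway gene for the difference of effects; 3, 2021 and 483 genes were called in all, against 72, 2740 and 1584. The number of reads is unknown, so the limit that depth sets cannot be given.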
